A study of Mus musculus with 4 samples.

Results

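The medial habenula was examined in coronal brain sections of male pups at postnatal day 21, in which 128 of 13452 kept spots were assigned to it, 32 in each of 4 sections. The spots were chosen by their own expression, so the values that selected them are given as a description. In each section, spots with at least 500 UMIs (unique molecular identifiers, the counted molecules) and 250 genes were kept, and the score of a spot was the mean, over Pou4f1, Gpr151, Chrnb4, Chrna3, Gng8, Nwd2 and Lrrc55, of ln(1 + UMIs of the gene per 10000 UMIs of the spot). The 32 spots with the highest score were taken. All pups were wild-type offspring of C57BL/6J mothers, given in the labels as 8 weeks old when assigned to a diet, whereas the study's methods give a wider range of ages. The MF group came from mothers fed 2 mg/kg folic acid (FA) and the HF group from mothers fed 20 mg/kg FA, in both groups from 2 weeks before mating through pregnancy and lactation. There were 2 sections per diet, described as biological replicates, and the litter or mother of each section is not given in the sources used here. Visium-FFPE counts pairs of probes hybridised to a 5 µm fixed section in barcoded spots, so 1 spot can hold several cells or parts of cells.

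The medial habenula is a small paired nucleus of the dorsal diencephalon that borders the third ventricle beneath the choroid plexus. Its neurons send their axons through the fasciculus retroflexus to the interpeduncular nucleus and carry some of the highest densities of nicotinic acetylcholine receptors in the brain. Neurons of its dorsal part are known to make substance P, from the Tac1 gene, and those of its ventral part acetylcholine, and both release glutamate. In bulk spots of this kind, fewer cells of a type and less RNA per cell cannot be told apart.

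The members lay together on the array and were not scattered through the section. In MF replicate 1, 31 members formed 1 connected group and 1 stood alone. Those of MF replicate 2 formed groups of 15, 14 and 3 spots and those of HF replicate 1 groups of 28 and 4, while all 32 of HF replicate 2 were connected. Over the 4 sections, 82.8% of the members were in the largest group of their section, and they spanned between 6 and 9 array rows. A ring of 209 kept spots within 2 steps of a member that touched another member was set aside as the surrounding tissue.

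**Figure D1:**
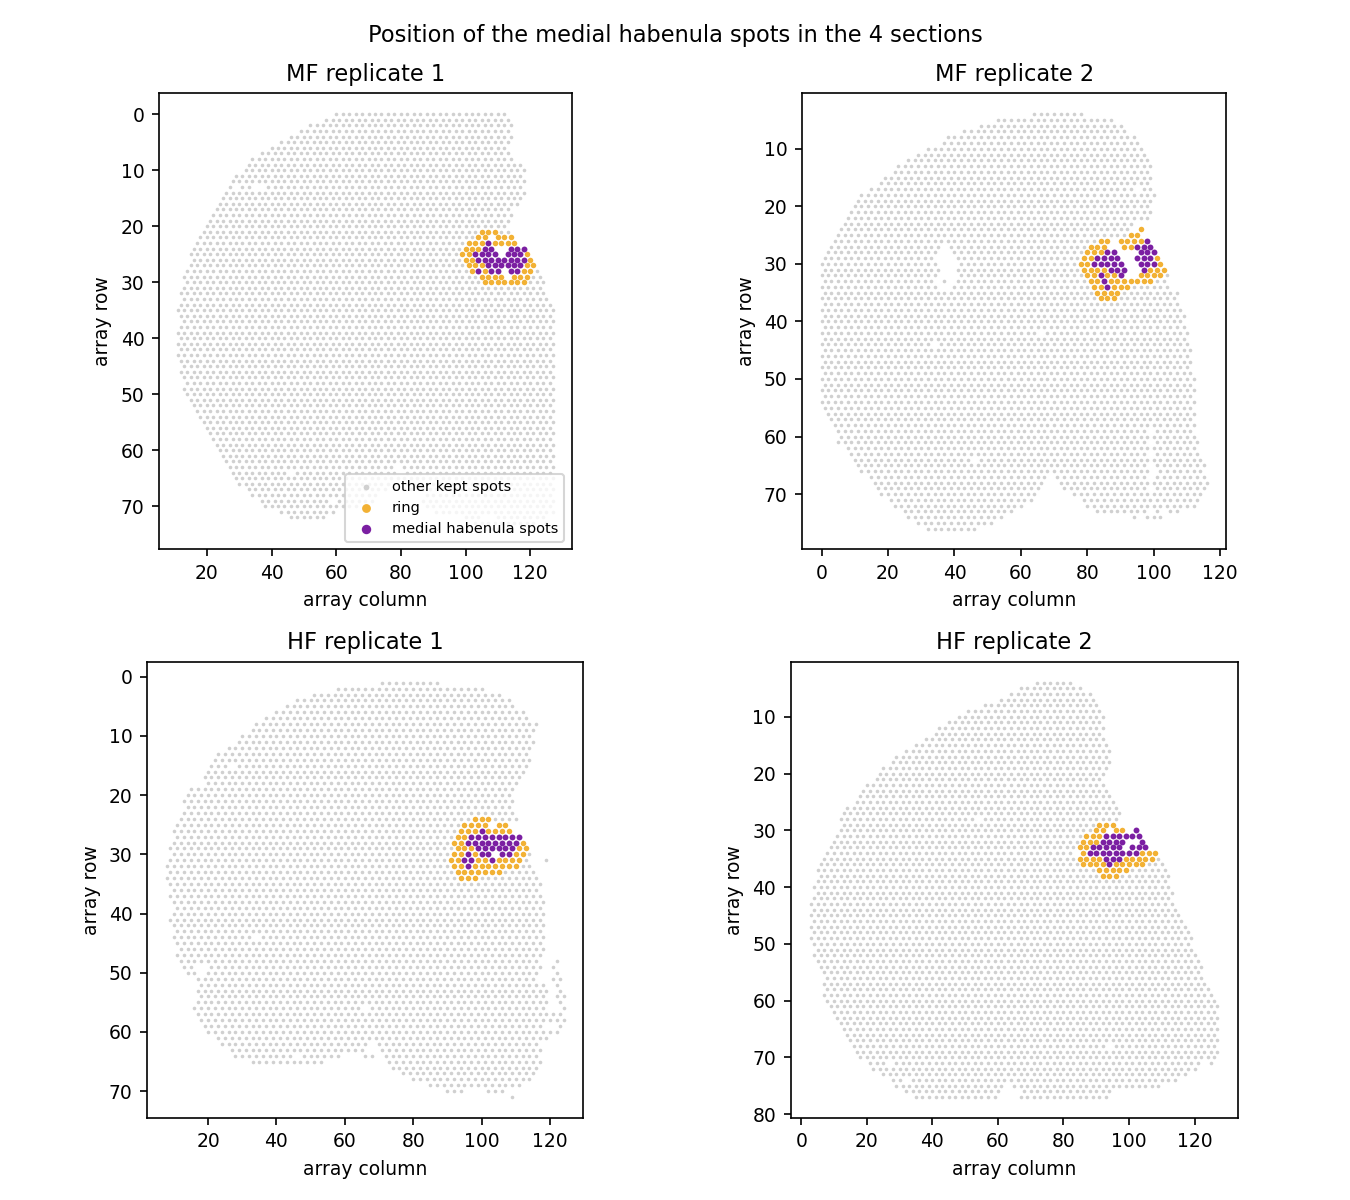
Kept spots of the 4 sections by array column (x axis) and array row (y axis, row 0 at the top), with the 32 medial habenula spots of each section in purple, the ring around them in yellow and all other kept spots in grey. The members form a patch of between 6 and 9 rows near the right-hand edge of each section, split by a gap in MF replicate 2.

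Members differed in how strongly they carried the selecting genes. The highest score was between 2.07 and 2.31 in the 4 sections. The last spot inside the limit scored 1.08 and 0.956 (MF replicates 1 and 2) and 1.11 and 0.544 (HF replicates 1 and 2), and the first spot outside it 1.02, 0.947, 1.09 and 0.538. HF replicate 2 therefore stood apart, since 21 of its 32 members reached a score of 1, against 32, 29 and 32 in the other sections. The members held between 714759 and 1510265 UMIs per section, with MF replicate 1 the deepest, and a median of between 20613 and 47416.5 UMIs per spot against between 9213 and 23459 in the other spots.

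The selecting genes were, by construction, far above their level outside the members. Levels are given as CPM, the UMIs of a gene per 1000000 UMIs summed over the spots of a section. Pou4f1, a POU homeodomain transcription factor of habenular neurons, had 265 and 324 CPM in the members of the MF sections and 351 and 313 CPM in those of the HF sections, against a mean of 4.82 ± 2.11 CPM (SD, n = 4) in all other spots. Chrna3 and Chrnb4, which encode the α3 and β4 subunits of a nicotinic receptor, were 47.2-fold and 80.8-fold above the other spots. Gpr151, an orphan receptor found on habenular axons, was 48.5-fold above them, and the G protein subunit gene Gng8 38.4-fold. Nwd2 and Lrrc55, the latter an auxiliary subunit of a calcium-activated potassium channel, had the lowest ratios, 18.9-fold and 23.4-fold.

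Genes that took no part in the score showed whether the patch carried the profile of the nucleus named in its label, and 6 of 8 markers listed for this did so. The 8 markers had a median log2 ratio of 4.57 between members and other spots. No test was made of these ratios, since members were selected on the expression of the same spots. Tac2, the precursor of neurokinin B, had 1702, 1607, 1666 and 1178 CPM in the members of MF replicates 1 and 2 and HF replicates 1 and 2. Outside the members it averaged 53.9 ± 13.9 CPM (SD, n = 4). Every section was thus far above its other spots, with HF replicate 2 the lowest, and the mean ratio was 29.1-fold. The 2 markers that did not follow were Tac1, with a ratio of 1.82-fold, and Chrna5, which encodes the nicotinic α5 subunit. Chrna5 was counted with 3, 1, 5 and 4 UMIs in the members, and its level was below that of the other spots in both MF sections.

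Among 8687 features with a mean of at least 20 CPM in the members, 55 were at least 8-fold above the other spots in all 4 sections and 304 at least 2-fold, while the median log2 ratio of all 8687 was 0.06. The highest ratio among them belonged to Gm5741, a predicted protein-coding gene outside the score on chromosome 8 of mm10 from 85067568 to 85067982. It had 828, 745, 819 and 911 CPM in the members in the order of sections used above, and 9.92 ± 2.93 CPM (SD, n = 4) elsewhere. Its ratio, 86.0-fold, was above that of each of the 7 selecting genes.

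**Figure D2:**
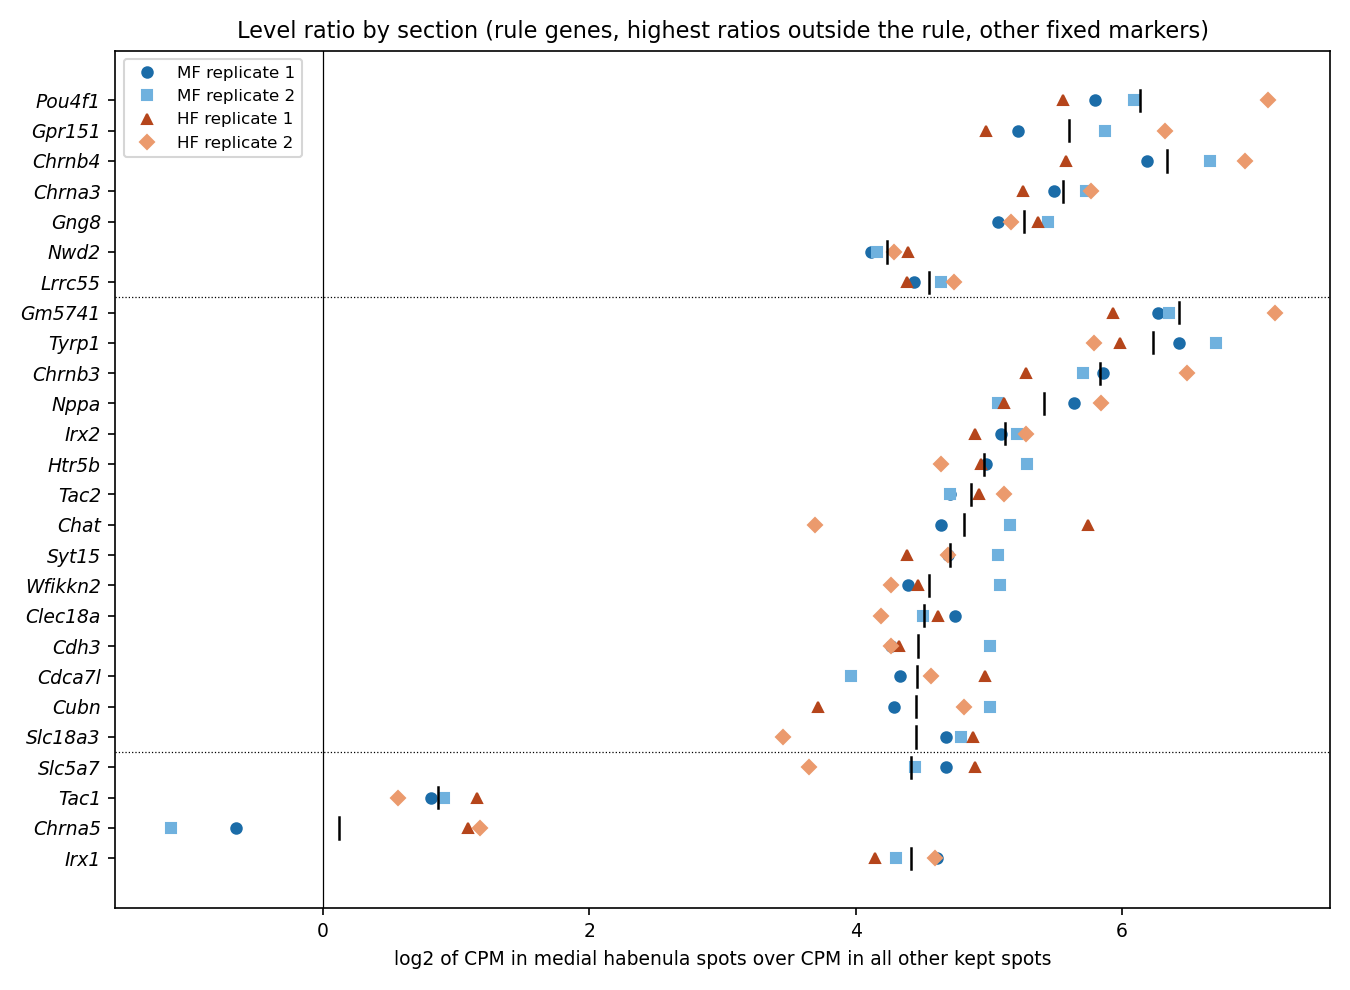
Log2 of the CPM in the medial habenula spots over the CPM in all other kept spots of the same section (x axis) for the 7 selecting genes, the 15 genes outside the score with the highest mean ratio and the 4 other listed markers (y axis). Symbols are the 4 sections and black bars their means; all genes except Tac1 and Chrna5 lie above 3 in every section.

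The next genes of that order came from several families. Tyrp1, an enzyme of melanin synthesis in pigment cells, had a log2 ratio of 6.23 ± 0.42 (SD, n = 4) but only 35.1 CPM in the members. Chrnb3, the nicotinic β3 subunit, followed with 5.83 ± 0.50 and Nppa, the precursor of atrial natriuretic peptide, with 5.42 ± 0.38. The Iroquois homeobox gene Irx2 had 5.12 ± 0.17 and the serotonin receptor gene Htr5b 4.96 ± 0.27. Syt15, Wfikkn2, Clec18a, Cdh3, Cdca7l and Cubn had log2 ratios between 4.46 and 4.71.

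The nicotinic receptor genes differed sharply among themselves although several are neighbours in the genome. On chromosome 9 of mm10, Chrna5 runs from 54980880 to 55007779, Chrna3 from 55010111 to 55026562 and Chrnb4 from 55028154 to 55048779, with 2331 and 1591 bases between them. Chrna3 and Chrnb4 were among the genes that defined the members, whereas Chrna5 had at most 6.18 CPM there. Chrnb3 had 114, 109, 97.7 and 112 CPM in the members and 1.95 ± 0.53 CPM (SD, n = 4) elsewhere. Chrna6, 3481 bases from Chrnb3 on chromosome 8, was higher than elsewhere by a log2 ratio of 3.09 ± 0.06 but rested on between 4 and 7 UMIs in a section. The widely used β2 subunit, Chrnb2, had a log2 ratio of 0.67 ± 0.19. Of 14 listed subunits outside the score, 3 were above the other spots in all 4 sections, and 6 had no UMI in any member.

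The genes of acetylcholine synthesis and storage were present together. Chat, which makes acetylcholine, had 70.8, 67.7, 87.8 and 65.8 CPM in the members and 2.86 ± 1.56 CPM (SD, n = 4) in the other spots. The vesicular transporter Slc18a3, whose gene lies inside the span of Chat on chromosome 14, was 21.9-fold and the choline transporter Slc5a7 21.4-fold above the other spots. The ratios of Chat, Slc18a3 and Slc5a7 were lowest in HF replicate 2, with a log2 ratio of 3.70 for Chat. Chat was also higher outside the members of that section. Spots more than 10 steps away had 5.47 CPM there, against 2.73, 1.81 and 1.09 CPM in MF replicates 1 and 2 and HF replicate 1. Ache, the enzyme that breaks acetylcholine down, was close to its level elsewhere, with a log2 ratio of 0.18 ± 0.11.

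Of the listed transcription factors of the habenula, 11 of 13 genes were above the other spots in all 4 sections and 9 at least 2-fold above them. Irx1 was 21.3-fold, Irx5 20.3-fold and Nhlh2 14.1-fold above them. Lhx9 was 11.8-fold, Zic1 8.57-fold and the orphan nuclear receptor Nr4a2 6.63-fold higher. Tcf7l2, a Wnt pathway factor of the thalamus and habenula, was 2.15-fold higher. Rorb, a nuclear receptor of cortex and thalamus, was the gene of this list below the other spots in every section.

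Receptors and excitability genes were selective, and those named below were higher than elsewhere. Of 21 peptide and orphan receptor genes with a ratio, 6 were above the other spots in all 4 sections and 12 below. Their median log2 ratio was −0.35. Of 11 pacemaker and low-threshold calcium channel genes, 3 were above and 6 below, and of 10 calcium-binding protein genes 4 and 5. The GABA-B receptor complex had 4 above and 3 below of 10. Kctd8 and Kctd12b, auxiliary subunits of the GABA-B receptor, were 13.2-fold and 7.68-fold above the other spots, and the receptor subunits Gabbr1 and Gabbr2 2.19-fold and 2.18-fold. Gpr139, an orphan receptor, was 13.1-fold and the neurokinin receptor Tacr1 8.95-fold higher. Oprm1, the µ-opioid receptor, was 3.23-fold and the somatostatin receptor gene Sstr2 4.16-fold higher. Ano1, a calcium-activated chloride channel, was 21.6-fold and the calcium-binding protein gene Necab2 10.6-fold higher. Most other peptides were low, with 10 of the 13 that had UMIs in every member and other sum below the other spots in all 4 sections.

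The vesicular glutamate transporter Slc17a6 was 1.55-fold above the other spots, while the genes of GABA neurons were below them. Gad1 had a log2 ratio of −2.22 ± 0.53 (SD, n = 4), Gad2 −1.78 ± 0.25 and the vesicular transporter Slc32a1 −1.82 ± 0.16. Slc17a7, the gene of another vesicular glutamate transporter, had 1531 ± 191 CPM in the members, against 1800 ± 86.4 CPM elsewhere.

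To show the start regions of genes that mark the members, promoter sequences were taken from RefSeq (GRCm38.p6), where 21 of the 26 genes discussed above as selecting, leading or listed markers had an entry of 300 bases (250 before and 50 after the start site). Of 10 short strings searched on both strands, CAGCTG, a palindromic E-box, was in 10 of the 21 and in 16.3% of all 32851 promoters. The other 9 strings were in none of the 21. These were ATTAAT, found in sites of POU4F1-type factors and in 4.75% of all promoters, and the overlapping TNATTAAT (2.75%), ATNATTAAT (0.989%), TAATTAAT (0.852%), AATTAATTA (0.283%), ATAATTAAT (0.274%) and a longer POU4F1 site (0.0122%), as well as TGACGTCA (1.79%) and a 10-letter NRF1 site (0.971%). A match or its absence describes these letters in this window alone. CAGCTG was chosen for display after the search. It stands in capitals in the promoters of Pou4f1 (chr14:104467950-104468249, minus strand), Chrnb4 (chr9:55048495-55048794, minus strand), Tac2 (chr10:127724228-127724527, plus strand) and Chat (chr14:32465860-32466159, minus strand), where it begins 118, 14, 22 and 150 bases before the start site.
Pou4f1: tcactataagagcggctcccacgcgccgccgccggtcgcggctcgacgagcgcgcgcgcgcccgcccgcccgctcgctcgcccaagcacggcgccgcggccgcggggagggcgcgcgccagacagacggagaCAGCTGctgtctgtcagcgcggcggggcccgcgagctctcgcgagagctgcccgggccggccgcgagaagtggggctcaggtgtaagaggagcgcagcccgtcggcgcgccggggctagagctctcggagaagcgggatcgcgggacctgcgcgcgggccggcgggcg
Chrnb4: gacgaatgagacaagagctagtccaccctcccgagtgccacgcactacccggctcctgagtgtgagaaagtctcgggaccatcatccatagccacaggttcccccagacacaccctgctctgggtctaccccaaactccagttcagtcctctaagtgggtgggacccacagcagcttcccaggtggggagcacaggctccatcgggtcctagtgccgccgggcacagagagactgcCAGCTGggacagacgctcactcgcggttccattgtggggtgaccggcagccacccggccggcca
Tac2: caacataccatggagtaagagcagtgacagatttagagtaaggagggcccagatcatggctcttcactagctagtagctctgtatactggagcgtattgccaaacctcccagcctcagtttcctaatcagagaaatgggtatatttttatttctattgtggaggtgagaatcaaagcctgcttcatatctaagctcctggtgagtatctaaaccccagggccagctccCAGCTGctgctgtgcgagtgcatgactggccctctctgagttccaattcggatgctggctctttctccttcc
Chat: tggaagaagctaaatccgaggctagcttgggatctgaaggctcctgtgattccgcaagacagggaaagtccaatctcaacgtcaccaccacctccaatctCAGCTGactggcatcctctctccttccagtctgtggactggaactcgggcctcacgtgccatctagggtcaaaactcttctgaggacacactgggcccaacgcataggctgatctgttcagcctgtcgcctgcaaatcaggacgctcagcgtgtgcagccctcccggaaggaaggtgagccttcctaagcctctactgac

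Markers of neighbouring tissue showed what else the spots held. All 10 choroid plexus genes and all 7 ependymal genes that had a ratio were above the other spots in all 4 sections, with median log2 ratios of 2.05 and 2.02. Ttr, the abundant secreted protein of choroid plexus, had 6311, 8893, 12241 and 24302 CPM in the members. Single members of HF replicate 2 ranged from 425 to 219818 CPM of Ttr with a median of 3515 CPM. All 6 relay thalamus genes and all 13 oligodendrocyte genes were below the other spots in every section. Of the 4 lateral habenula genes, 3 were below the other spots in every section, with Gap43, a growth-associated protein of axons, at a log2 ratio of −1.19 ± 0.44.

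The level of genes outside the score fell within 1 step of the members. Tac2 averaged 1538 ± 243 CPM (SD, n = 4) in the members, 290 ± 146 CPM in spots 1 step away, 133 ± 54.1 CPM 2 steps away and 49.3 ± 13.3 CPM more than 10 steps away. Irx1 went from 241 CPM in the members to 81.0 and 41.0 CPM at 1 and 2 steps. Ttr took the opposite course and rose from 12937 CPM in the members to 40018 ± 19379 CPM at 1 step, before it fell to 1259 ± 311 CPM at 7 to 10 steps. Calb2, the gene of the calcium-binding protein calretinin, did not mark the border, with 1075 ± 88.2 CPM in the members and 1303 ± 217 CPM 3 steps away.

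**Figure D3:**
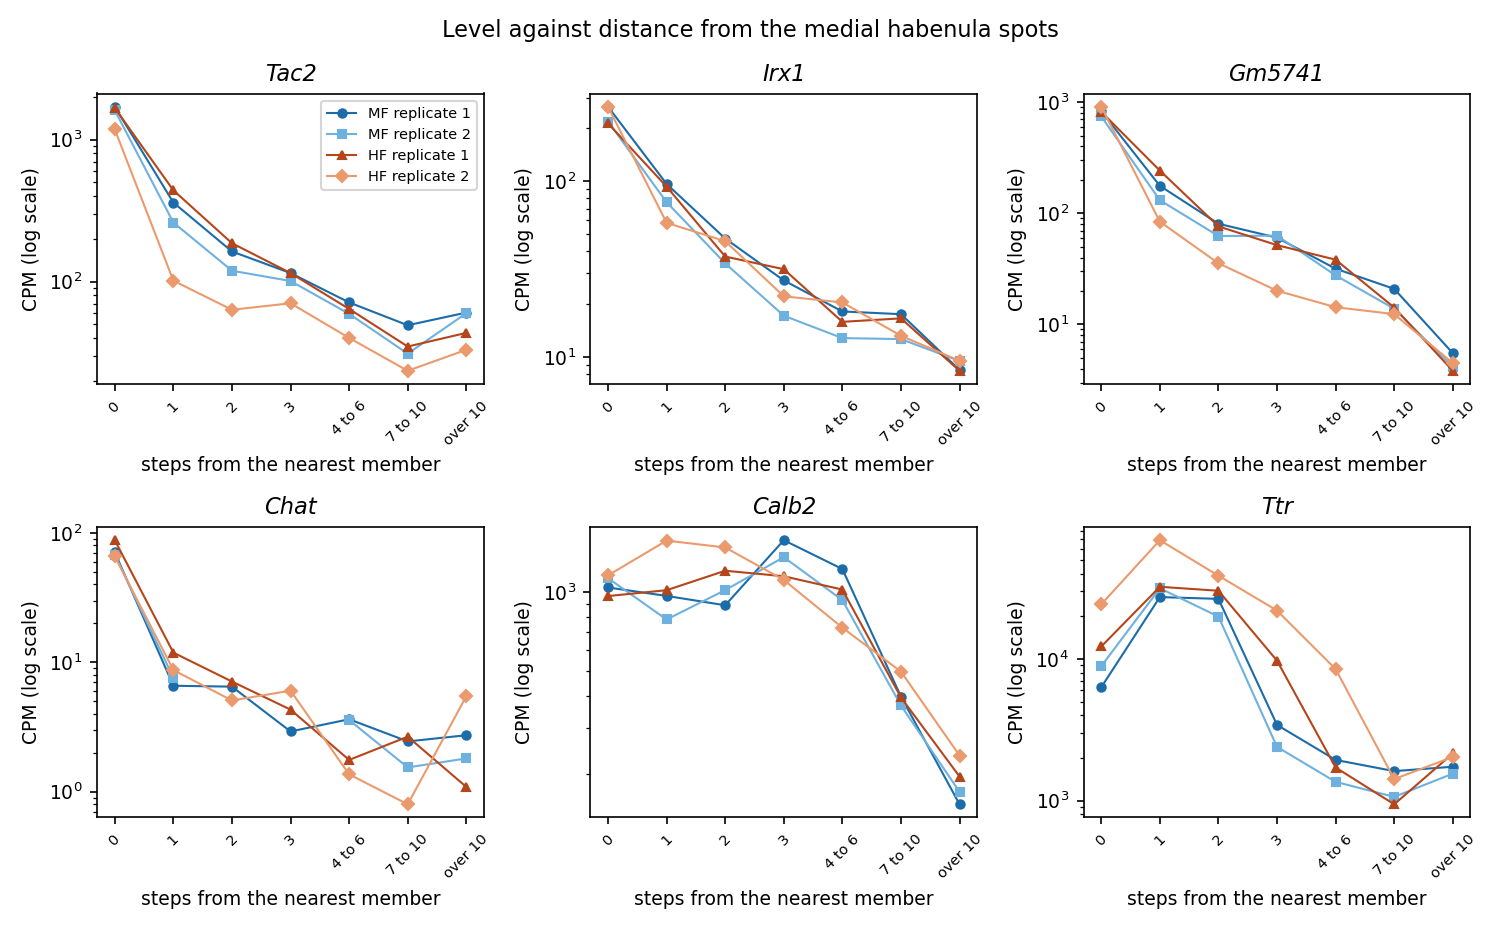
Level in CPM (y axis, log scale) against the number of array steps from the nearest medial habenula spot (x axis, 0 for the members) in each of the 4 sections for 5 genes outside the score and Ttr; a value of 0 is not drawn. Tac2, Irx1, Gm5741 and Chat fall at the first step, Calb2 averages between 978 and 1303 CPM up to 6 steps, and Ttr peaks at 1 step.

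The deposited Moran's I, a score of how alike neighbouring spots are in a gene, ranked Pou4f1 between 46 and 172 among the features of a section and Gm5741 between 24 and 129. Chat ranked between 717 and 995. Ttr ranked between 9 and 18.

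The members were then divided within each section by array row into the upper 16 and the lower 16, to ask whether the nucleus was uniform. The upper spots lay farther from the rows rich in Dlk1, a gene of hypothalamic neurons, whose UMIs centred on rows between 55.5 and 61.7 while the members lay on rows 23 to 36. This comparison was added after the maps were seen. With section as a block, the quasi-likelihood test of edgeR called 124 of 8105 genes at an adjusted p-value under 0.05 and a change of at least 1.2-fold, 80 (0.987% of those tested) higher in the upper spots and 44 (0.543%) lower. These counts include 3 of the selecting genes. The genes named from this comparison were chosen after their values were seen.

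Tac1 was among the clearest of these differences. It had 132 CPM in the upper and 21.9 CPM in the lower spots of MF replicate 1, 144 and 35.7 CPM for MF replicate 2, 174 and 54.7 CPM for HF replicate 1 and 87.3 and 20.6 CPM for HF replicate 2. The upper spots were higher in all 4 sections without overlap, by 2.10 ± 0.20 on the log2 scale (SE; edgeR adjusted p = 1.14e-08). Spots 1 step outside the members had 35.1 ± 19.6 CPM of Tac1 (SD, n = 4), below the upper members. The cause of the difference between upper and lower spots was not tested.

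Other peptide genes moved the same way. Both tested tachykinin genes and 4 of 6 other neuropeptide genes were called higher in the upper spots and none lower. Tac2 was higher by 0.45 ± 0.08 (SE; edgeR adjusted p = 0.00103), Cck, the precursor of cholecystokinin, by 0.85 ± 0.11 and Sst, the precursor of somatostatin, by 0.70 ± 0.13. Adcyap1, the precursor of the peptide PACAP, was higher by 1.78 ± 0.24 in the fit, but in HF replicate 2 it had 77.9 CPM in the upper and 82.5 CPM in the lower spots. Among the remaining genes, the potassium channel subunit Kcng4 rose by 1.87 ± 0.15, the cyclic nucleotide phosphodiesterase Pde11a by 3.29 ± 0.37 and the immediate early gene Nr4a3 by 1.39 ± 0.20, and the upper spots were above the lower in all 4 sections for each of the 3.

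Lower in the upper spots were Syt15, a synaptotagmin, by −1.54 ± 0.21 on the log2 scale, Syt17 by −1.09 ± 0.15, the protein kinase C gene Prkcq by −0.85 ± 0.12 and the somatostatin receptor gene Sstr4 by −0.86 ± 0.14. In each of these the upper spots were below the lower spots in all 4 sections. Nr4a2 differed by −0.72 and the nicotinic α4 subunit gene Chrna4 by −0.81, with edgeR adjusted p-values of 0.00225 and 0.0145. The selecting genes moved in both directions, which is given as a description since they chose the members. Gpr151 and Chrna3 were lower in the upper spots in all 4 sections, whereas Gng8 and Pou4f1 were higher there in all 4, by 0.42 and 0.38 on the log2 scale. Gpr151 had 399, 386, 421 and 458 CPM in the upper and 654, 923, 717 and 605 CPM in the lower spots of the 4 sections.

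Chat did not pass. Its upper and lower spots had 39.8 and 104 CPM in MF replicate 1, 36.0 and 102 CPM for MF replicate 2, 61.2 and 117 CPM for HF replicate 1, but 80.2 and 44.7 CPM for HF replicate 2, so that 3 sections were lower above and 1 higher. The difference was −0.85 ± 0.23 (SE; 95% confidence interval −1.32 to −0.38) with an edgeR adjusted p-value of 0.0537. Slc18a3 and Slc5a7 had the same split of sections, with differences of −0.68 and −0.55 and adjusted p-values of 0.083 and 0.279 in edgeR. All 6 cholinergic genes tested had a fitted value below 0 and none passed. In HF replicate 2 the mean score was 1.14 in the lower against 1.598 in the upper spots, where the other 3 sections had lower spots at or above the upper.

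**Figure D4:**
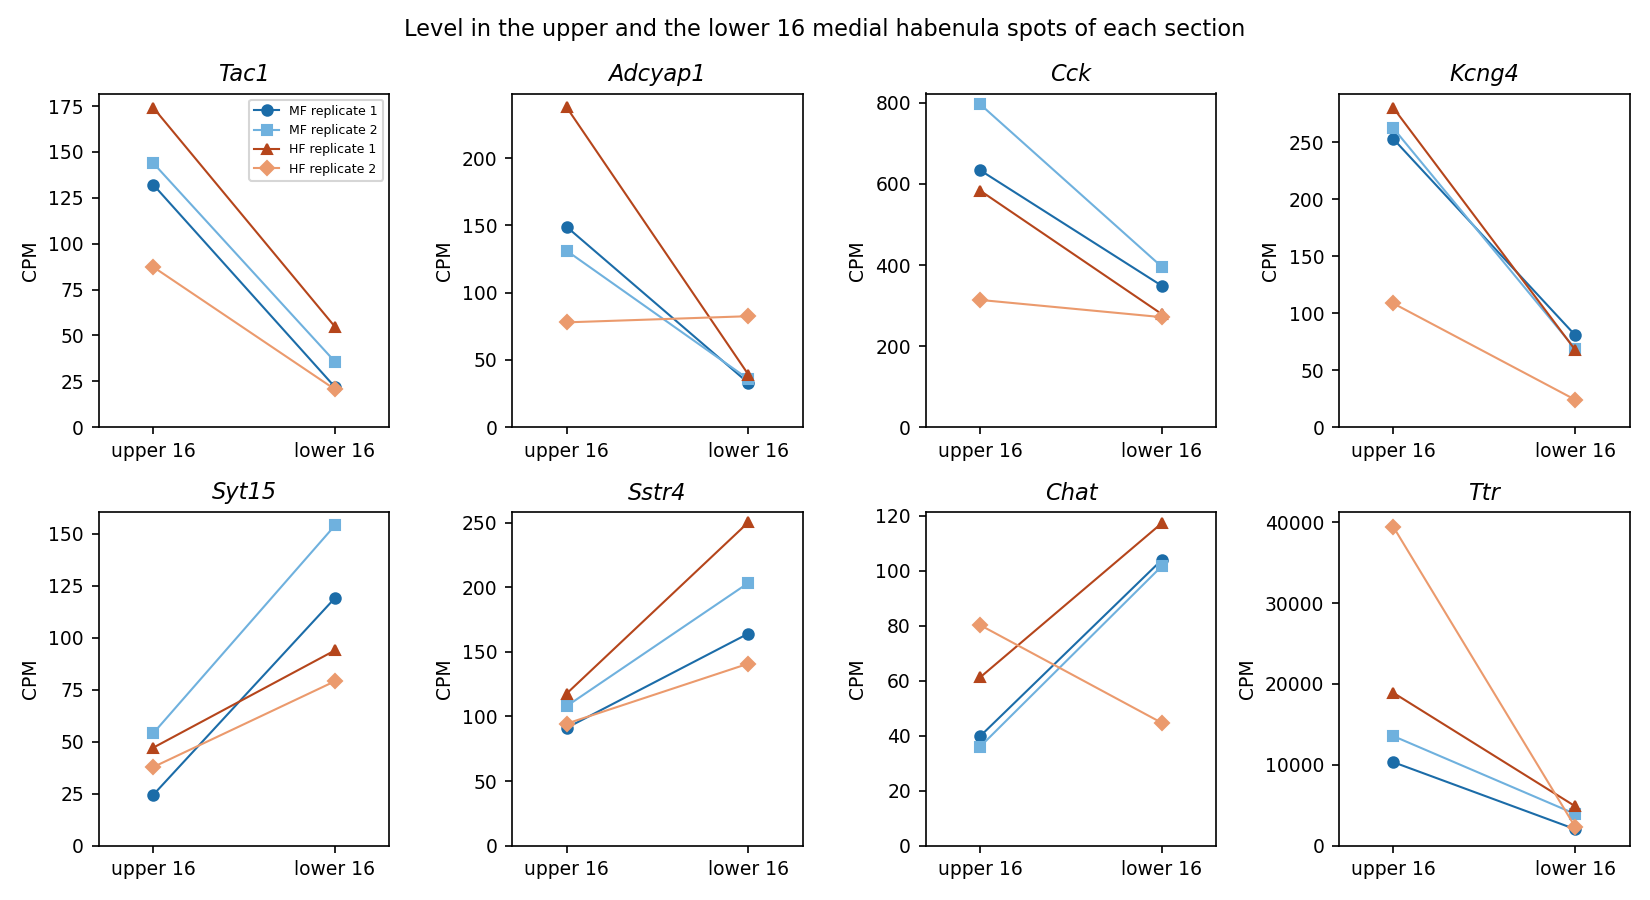
CPM (y axis, from 0) in the upper 16 and the lower 16 medial habenula spots (x axis) for 8 genes, with a line for each of the 4 sections. Tac1 and Kcng4 are higher in the upper spots of every section, Syt15 and Sstr4 lower in every section, and Chat and Adcyap1 run the other way in HF replicate 2.

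Choroid plexus genes moved with the same division. Ttr was higher in the upper spots by 2.52 ± 0.19 on the log2 scale, and 4 of the 5 choroid plexus genes tested were called, all upward. The part of this neighbour in the other differences was not tested beyond the following value. In the 16 members of each section with the lowest share of Ttr, divided again by row, 40 genes were called, Tac1 was higher by 1.08, no longer called, and Kcng4 higher by 1.42 and still called, while Syt15 turned to 0.61, Prkcq to 0.11 and Sstr4 to 0.24. The count was 77 without MF replicate 2, 58 without HF replicate 1 and 198 without HF replicate 2, 27 with DESeq2 and 8 with thinned spots.

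Between the diets, few genes of the members passed the test. UMIs of the 32 spots were summed per section and compared with edgeR over 10031 genes, of which 2, or 0.0199%, were called, both higher in HF, while 496 had an unadjusted p-value under 0.05. An exact two-sided permutation test on a single value cannot fall below p = 0.333 with so few sections. The median difference of all genes was −0.0023 on the log2 scale.

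Egr1, an immediate early transcription factor induced by neuronal activity, had 13.2 and 21.3 CPM in the MF and 60.6 and 74.2 CPM in the HF members. The HF sections were higher without overlap, by 2.06 ± 0.29 on the log2 scale (SE; 95% confidence interval 1.46 to 2.66; edgeR adjusted p = 0.00932). The same gene was higher in HF outside the members, with 49.7 and 58.7 CPM in MF and 158 and 344 CPM in HF over all other spots, and the difference between members and others was −0.13 ± 0.30 (edgeR adjusted p = 1). Of 12 immediate early genes tested in the members, 8 were higher and 4 lower in HF, with a median of 0.26, and Egr1 alone was called. Fos, with between 2.80 and 6.64 CPM, was too low to be tested, and Arc had 41.1 and 49.1 CPM in MF and 59.4 and 43.4 CPM in HF.

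Ttr was the other called gene. Its members had 6311 and 8893 CPM in MF and 12241 and 24302 CPM in HF, a difference of 1.27 ± 0.21 on the log2 scale (SE; 95% confidence interval 0.84 to 1.71; edgeR adjusted p = 0.0406). The median single member had 3251 and 5937 CPM in MF and 8293 and 3515 CPM in HF, so these medians overlapped between the diets. In HF replicate 2 the upper 16 members had 39407.5 CPM and the lower 16 members 2312 CPM. All 10 choroid plexus genes were higher in HF with a median of 1.06 on the log2 scale and 1 of them was called by edgeR. All 7 ependymal genes were higher with a median of 0.50 and none was called. In these lists 7 and 3 genes were higher at an unadjusted p-value under 0.05 in edgeR. Over all 10031 genes tested, 4977 were higher in HF, 293 of them at an unadjusted p-value under 0.05. The 9 choroid plexus genes other than Ttr summed to 879 and 1004 CPM in MF and 1340 and 2075 CPM in HF. In the 16 members of each section with the lowest share of Ttr, its difference was 0.29 and no gene was called by edgeR, and Egr1 was higher by 1.91 with an adjusted p-value of 0.998. Those spots were picked by Ttr itself and were fewer, with 8011 genes tested. The smaller difference of Ttr was thus partly set by the choice, and the part of choroid plexus in the diet difference was not tested.

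The genes of the habenular neurons themselves gave no call between the diets, where 0.0199% of all genes tested were called. The absence of a call in a short list therefore says little about its genes. Tac2 had 1702 and 1607 CPM in MF and 1666 and 1178 CPM in HF, so the groups overlapped, with a difference of −0.22 ± 0.13 (SE; 95% confidence interval −0.49 to 0.06). Chat differed by 0.15 (−0.26 to 0.57), Irx1 by −0.04 (−0.35 to 0.27) and Chrnb3 by −0.10 (−0.44 to 0.25). The habenular transcription factors had 7 higher and 4 lower of 11 tested with a median of 0.09, the cholinergic genes 3 and 3 of 6 with a median of −0.01, and the GABA-B receptor complex 5 and 4 of 9 with a median of 0.19. Over all 10031 genes, 4977 were higher in HF and 5054 lower. No gene of these 3 lists was called by edgeR, and DESeq2 called 0 genes of any kind. None of the 3 lists held an unadjusted p-value under 0.05 in edgeR, against 496 of all 10031 genes. The lists named next did hold genes with an unadjusted p-value under 0.05 in edgeR, none of them called. Of 3 tachykinin genes tested, Tacr1 was lower in HF by −0.998. The lists of other neuropeptides and of calcium binding proteins had 1 lower each. Those of glutamate and GABA genes, of pacemaker channels and of monoamine receptors had 1 higher each. The lateral habenula list and the folate and one-carbon list also had 1 higher each, and the relay thalamus and oligodendrocyte lists 1 lower each. All 13 oligodendrocyte genes were lower in HF, with a median of −0.17. Minus the difference in all other spots, their median was 0.06. The folate list had 8 higher and 13 lower of 21 tested, with a median of −0.14. All 4 nicotinic subunits tested outside the score were lower in HF, with a median of −0.14 and no call. Of the 7 selecting genes, 3 were higher and 4 lower, with 1 each way at an unadjusted p-value under 0.05 in edgeR. This is given as a description, since these genes chose the members of each section.

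Below the threshold, the genes with the smallest p-values and separate sections were these. Pmch, the precursor of melanin-concentrating hormone of the lateral hypothalamus, had 133.8 and 70.4 CPM in MF and 33.4 and 1.40 CPM in HF members (−2.56 ± 0.44; edgeR adjusted p = 0.0576), and its level over all other spots was 698 and 505 CPM in MF and 327 and 0.694 CPM in HF. The metallothionein gene Mt2 had 638 and 555 CPM in MF and 382 and 388 CPM in HF (−0.64 ± 0.12; adjusted p = 0.0872), and Btaf1 77.5 and 65.1 against 30.9 and 34.98 CPM (−1.14 ± 0.23; adjusted p = 0.147). In all other spots Mt2 had 548 and 495 CPM in MF and 353 and 288 CPM in HF, and Btaf1 71.0 and 70.5 against 37.5 and 37.7 CPM. Trf, the gene of transferrin, and Prkcd, a protein kinase C gene of relay thalamus, had differences of −0.54 and −0.74. Enpp2, Mfrp and Aox1 were higher in HF by 0.85, 1.72 and 3.50 without passing.

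The 2 calls depended on the processing. Egr1 but not Ttr was called with library size alone, and Ttr but not Egr1 with thinned spots. Both were called with 16 or 48 spots per section. A fit with 1 section left out has 1 section in a diet, so its calls are no check of either gene. DESeq2 called 0 genes, with 69 at an unadjusted p-value under 0.05.

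**Figure D5:**
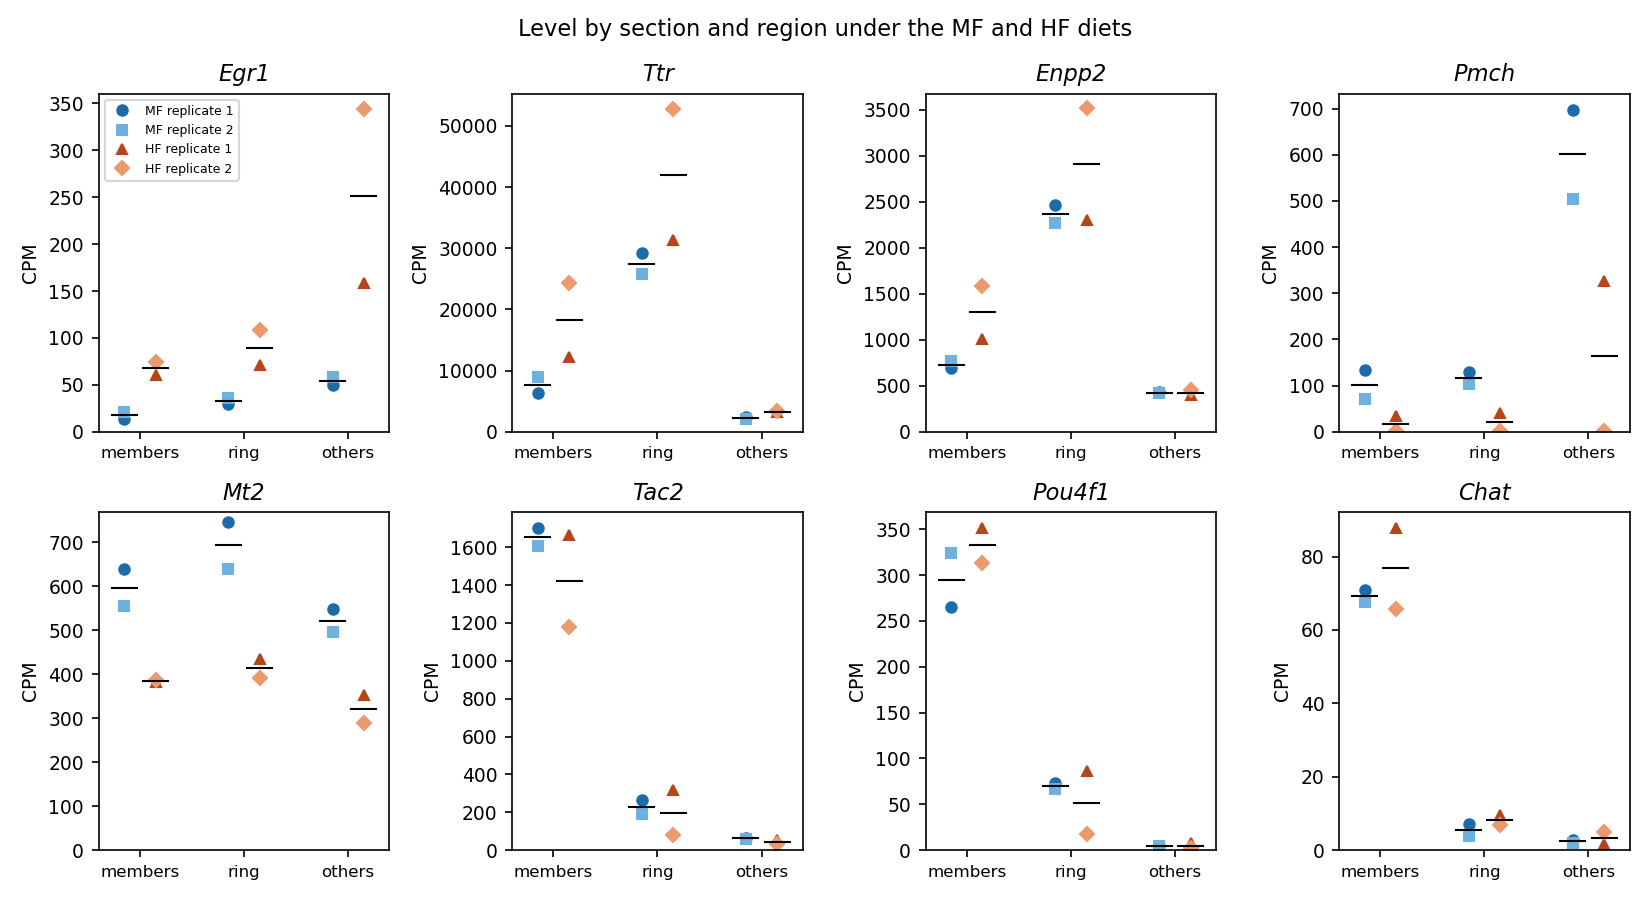
CPM (y axis, from 0) in the medial habenula spots, the ring and all other kept spots (x axis) for 8 genes, with the MF sections in blue, the HF sections in orange and black bars for the mean of each diet. Egr1 is higher in both HF sections in all 3 regions, whereas the sections of the 2 diets overlap in the members for Tac2 and Chat.

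Whether a diet difference was particular to the members was tested as the difference between their diet effect and that of the other tissue. Against all other spots, 1 of 14629 genes (0.00684%) was called. It was Enpp2, the gene of autotaxin, an enzyme secreted by choroid plexus, with 687 and 764 CPM in MF and 1013 and 1587 CPM in HF members, and between 396 and 449 CPM in the other spots of the 4 sections. The excess of the members was 0.82 ± 0.12 on the log2 scale (SE; 95% confidence interval 0.58 to 1.05; edgeR adjusted p = 0.000164). It was 0.12 in the 16 members with the lowest share of Ttr and was no longer called there, in spots that were fewer and picked by a choroid plexus gene. The count was 0 without MF replicate 1 or MF replicate 2, 45 without HF replicate 1 and 4 without HF replicate 2.

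Against the ring, 2 of 11013 genes (0.0182%) were called, both haemoglobin genes of red blood cells. Hbb-bs had 1511 and 1191 CPM in MF and 2002 and 895 CPM in HF members, and in the ring 3492 and 2511 CPM in MF and 2443 and 1048 CPM in HF. The members thus overlapped between the diets while the ring was lower in HF, a difference of 0.89 ± 0.09 on the log2 scale (SE; edgeR adjusted p = 3.01e-05). Hba-a2 differed by 0.84 ± 0.11, and its reads can be shared with a near-identical copy. The count was 1 without MF replicate 1, 5 without MF replicate 2, 40 without HF replicate 1 and 6 without HF replicate 2, and 0 with DESeq2, where 19 genes had an unadjusted p-value under 0.05.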

How the data were processed

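Visium-FFPE sections of male offspring were used, 2 per diet. Space Ranger 2.0.0 was used by the authors with the mm10 genome (GRCm38), and the deposited values are raw UMI counts of 19465 features per spot, without normalization. The deposited tables also give Moran's I, a score of likeness between neighbours, and their p-values were not used. Gene positions come from GENCODE vM21.

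Member spots and gene lists were chosen with earlier results of these data known. UMIs were summed per section and region and compared in R 4.3.3 with edgeR 4.0.16 (quasi-likelihood, TMM, filterByExpr), where section was a block if regions were compared. A gene was called if its p-value, adjusted by Benjamini-Hochberg, was under 0.05 and its change at least 1.2-fold. The methods were run on simulated counts with the same fixed spread for every gene, which gives no error rate for these sections. Genes named in the text are the selecting genes, the 15 with the highest ratio among those at 20 CPM or more in the members, up to 10 called per direction or, with fewer than 5, the 5 smallest p-values with separate sections, and list members; those of the upper and lower spots were chosen after their values were seen. Alternatives included DESeq2 1.42.0, spots thinned to 5000 UMIs, 16 or 48 spots per section, and each section left out. The p-values of edgeR rest on a spread between sections that the fit partly shares across genes. With so few sections, they do not measure the spread of each gene on its own. Depth ranged from 714759 to 1510265 UMIs over the members of a section, and counting error is larger for rare genes.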

Additional observations from a re-analysis of the deposited data

Results flagged for a closer look

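For 3 genes the difference between diets in the medial habenula spots differed from that in other tissue by a test of the difference itself. Enpp2 differed from all other spots by 0.82 on the log2 scale, and Hbb-bs and Hba-a2 from the ring by 0.89 and 0.84. With 2 sections per diet, no outlier test was made within a group.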

How the results depend on the processing

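With 2 sections per diet, counts of called genes depended on the processing. In the comparisons of diets, a fit with 1 section left out has 1 section in a diet, and its count is no check of a gene. Between the diets the count of 2 became 0 with DESeq2, 29 without the filter on low counts, 1 with library size alone, 1 with thinned spots, 5 with 16 and 16 with 48 spots per section, 6 with members at a score of at least 1, 0 in the 16 members with the lowest share of Ttr and 16 in a Wilcoxon test over 64 and 64 single spots, whose p-values are too small because spots of a section are not replicates. Of those 16 genes 1 was higher and 15 were lower in HF, and Egr1 but not Ttr was among them. Leaving out 1 section gave between 10 and 137 calls, the last without HF replicate 1. For the members against all other spots the count of 1 became 7 without the filter, 2 with thinned spots, 4 with 16 and 0 with 48 spots, 3 at a score of at least 1 and 0 at the lowest share of Ttr, and between 0 and 45 with a section left out. Against the ring the count of 2 became 0 with DESeq2, 8 without the filter, 0 with thinned spots and 0 with 48 spots, and between 1 and 40 with a section left out. With 48 spots Hbb-bs turned to −0.18 and Hba-a2 to −0.25.

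For the upper against the lower spots the count of 124 became 27 with DESeq2, 222 without the filter, 8 with thinned spots, 16 with 16 and 204 with 48 spots, 40 at the lowest share of Ttr, and between 58 and 198 with a section left out. In the members with the lowest share of Ttr the sign turned for Syt15 (0.61), Gpr151 (0.44), Prkcq (0.11), Trp53i11 (0.13), Sstr4 (0.24), Ctnnbip1 (0.31), Chrna3 (0.72), Fstl5 (0.049) and Plch2 (0.41), and with thinned spots for Chrna3 (0.058). The cause was not tested. The median log2 ratio of the 8 markers was between 4.27 and 4.88 with thinned spots, 16 or 48 spots per section, or members without a member neighbour left out. The share of members in the largest group was 86.7% with thinned spots, 81.2% with 16 and 80.2% with 48 spots per section. The limit of 1 on the score, the members with the lowest share of Ttr and the division into upper and lower spots were chosen after seeing the data. Genes with few UMIs, such as Chrna5 with at most 5 in a section, could not be compared at this depth.

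Whether same-numbered sections of the diets shared more than a number is not stated in the labels. Their deviations from the diet means correlated at −0.0791 over 10031 genes and 2 pairs. With so few sections, the deviations within a diet mirror each other. This correlation therefore cannot exclude a shared litter, slide or day. The fit with the replicate block gave 4 calls between the diets, 2 against all other spots and 6 against the ring.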
